A study of Mus musculus with 2 samples.

Results

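Ubiquitin ligases and related genes linked to T cell tolerance or activation were compared between sorted splenic CD8+ cytotoxic T cells and CD4+ helper T cells. The genes were chosen by name: the ligases Cblb, Cbl, Itch, Rnf128, Nedd4, Peli1 and Traf6, the adaptor Ndfip1 and the ubiquitin-editing enzyme gene Tnfaip3. Every non-control probe whose transcript accession belonged to 1 of these 9 genes was taken. In all, 11 probes matched 8 of the 9 genes, of 17176 genes named on the array, and Cblb is not analysed here because no probe was matched to it. The CD8+ and CD4+ groups were each 1 one-colour Agilent array of total RNA, from wild-type C57B6 spleen cells isolated by sorting. The sources used here do not give the animals behind each array, their age or the surface markers of the sort, and no group carried a treatment or an altered allele.

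A ubiquitin ligase attaches ubiquitin to a chosen protein, which marks that protein for degradation or changes what it binds. In T cells several such ligases act on the signalling chains below the T cell receptor and CD28, and so set how easily a cell is activated or falls into anergy, a state in which antigen no longer provokes a response. HECT ligases (Nedd4, Itch) carry the ubiquitin on a cysteine of their own and bind short proline-rich PY motifs, whereas RING ligases (Cbl, Cblb, Rnf128, Traf6) hold the charged E2 enzyme beside the substrate.

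With 1 array per cell type there was no replicate and no test, and all differences are descriptions of these 2 arrays. A signal is the spot's processed Cy3 intensity, given ± the scanner software's own error estimate for that spot, which covers measurement noise and no difference between animals. Differences are log2 of the CD8+ over the CD4+ level after each array was scaled to its 75th percentile, so positive values mean a higher level in CD8+ cells. In the CD8+ array 58.6% of the non-control spots were well above background by the software's call, and in the CD4+ array 63.1% were. Over 3972 genes with several probes above background on both arrays, the log2 difference varied among the probes of a gene with a pooled SD of 0.23. Differences are set beside this spread between probes. It comes from the same 2 arrays, so it leaves out errors of RNA preparation, labelling and hybridization and differences between animals. The genes that name the cells followed the labels, with log2 differences of 6.72 for Cd8a and -2.04 for Cd4. In bulk RNA, fewer cells of a kind and less RNA per cell cannot be told apart.

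Of the 8 measured genes, 6 were well above background on both arrays, Rnf128 was on the CD4+ array alone, and Itch was on neither. Of all 17176 named genes, 11957 were so on both arrays and 4118 on neither. The CD4+ array alone had 920 and the CD8+ array alone 181. Nedd4 was the single member at least 2-fold higher in CD8+ cells, where 2.21% of the 13058 genes above background on 1 or both arrays were that far apart. Rnf128 was the single member at least 2-fold higher in CD4+ cells, by a bound set at the lowest called signal, against 4.66% of the same genes. The other 5 members lay within 2-fold. The median difference of the 7 members above background was -0.04, beside 0.00 over all 13058 genes.

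**Figure D1:**
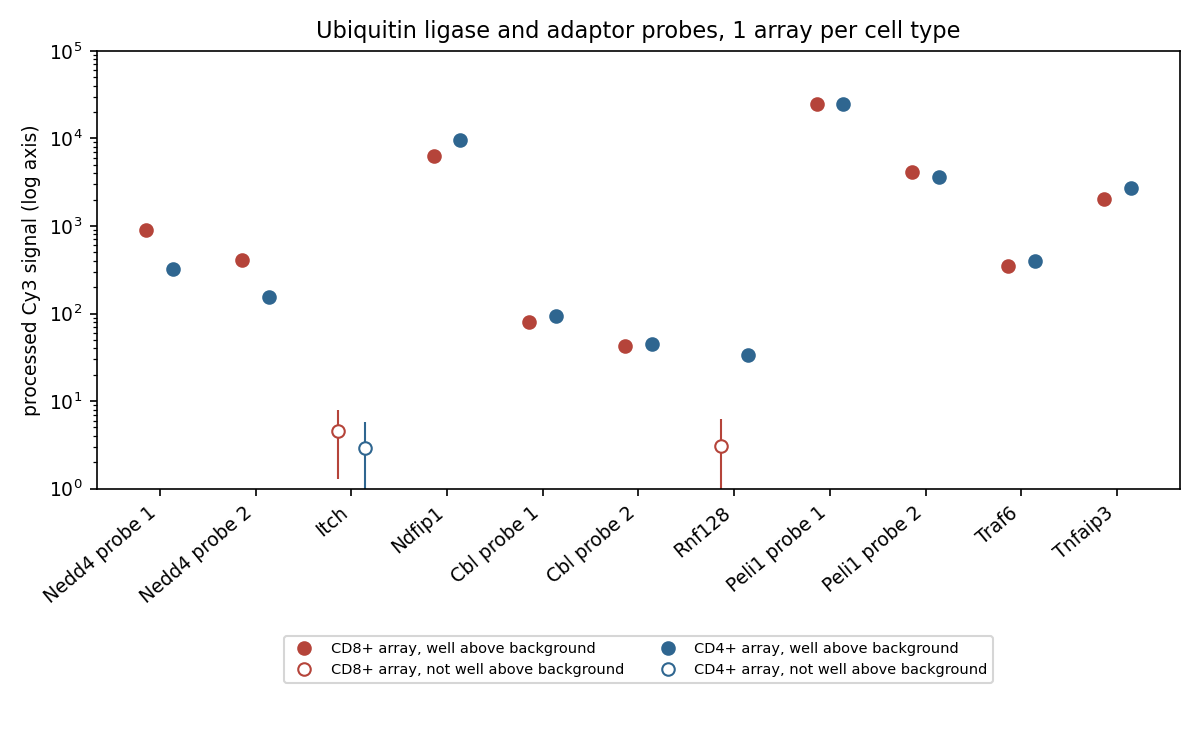
Processed Cy3 signal (log axis) of each member probe on the CD8+ array (red, left) and the CD4+ array (blue, right). Bars are the software's error for the spot, smaller than the symbols at bright spots and reaching below the axis for Itch on the CD4+ array and Rnf128 on the CD8+ array, and open symbols were not well above background. Both Nedd4 probes were brighter on the CD8+ array, and Rnf128 was above background on the CD4+ array alone.

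Nedd4, the founding HECT ligase of its family, is known in mouse T cells for promoting activation, in part by targeting Cbl-b. Its brighter probe had a processed signal of 892 ± 89.2 in CD8+ cells and 320.3 ± 32.1 in CD4+ cells. The second probe had 409.8 ± 41.1 in CD8+ cells and 152 ± 15.5 in CD4+ cells. Both probes were therefore brighter on the CD8+ array by far more than the software's error. After scaling, Nedd4 was 3.15-fold higher in CD8+ cells by the brighter probe (log2 difference 1.65 ± 0.20, the error propagated from the spots) and 3.04-fold by the second (1.60 ± 0.21). The probes differed from each other by 0.05, less than the spread of 0.23 between probes of a gene. Of 13058 genes, 101 (0.773%) were as far apart or farther in the direction of CD8+ cells.

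The pair of Nedd4 spots lay in different places on the array, at row 328, column 21 and at row 133, column 51. Among the spots above background within 10 rows and columns, the median difference was 0.06 around the brighter probe (273 spots) and 0.01 around the second (253 spots). The part of these surroundings in the Nedd4 values was not tested. Of 1397 spots whose CD4+ signal was within 0.25 log2 units of the brighter Nedd4 spot, 18 (1.29%) were as bright as it on the CD8+ array. Before any background subtraction the median pixel values were 988 in CD8+ cells and 385 in CD4+ cells, over local backgrounds of 62 and 54. Under the other 10 ways of processing, Nedd4 stayed between 2.76-fold and 3.47-fold higher in CD8+ cells, although several of these kept the same probe and scaling and so the same value.

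The promoter windows of Nedd4 are shown because it was the member with the largest difference measured on both arrays. Each holds the 250 bases before an annotated start, from RefSeq (build GRCm38.p6), read 5′ to 3′ on the gene's strand, with motif matches in capitals. The first, at chr9:72662081-72662330 on the plus strand, is 74% G and C, against a median of 52.4% over 32851 such windows. The second, at chr9:72693048-72693297 on the plus strand, precedes a start farther into the gene and is 46% G and C. The probes are not tied here to either start.
Nedd4 first start: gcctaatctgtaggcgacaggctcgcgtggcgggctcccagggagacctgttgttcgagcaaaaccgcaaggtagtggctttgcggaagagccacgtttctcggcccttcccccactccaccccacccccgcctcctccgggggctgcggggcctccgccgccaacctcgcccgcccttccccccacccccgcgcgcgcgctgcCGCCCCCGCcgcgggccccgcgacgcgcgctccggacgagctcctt
Nedd4 second start: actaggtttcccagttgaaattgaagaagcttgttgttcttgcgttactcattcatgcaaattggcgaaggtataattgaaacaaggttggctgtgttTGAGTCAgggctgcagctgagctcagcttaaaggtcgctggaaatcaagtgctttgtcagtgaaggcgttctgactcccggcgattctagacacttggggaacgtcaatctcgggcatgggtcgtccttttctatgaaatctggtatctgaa
The motifs searched on both strands were the NF-kB consensus, an NFAT core (GGAAAA), an EGR motif (GCGNGGGCG), an AP-1 motif (TGANTCA) and a RUNX motif (TGTGGT). These are binding sequences of factors that act downstream of the T cell receptor or in T cell development. The capitals in the first window are an EGR match on the opposite strand, 46 to 38 bases before the start, a motif that 4.70% of all windows held. Those in the second window are an AP-1 match, 152 to 146 bases before the start, a motif that 6.75% of all windows held. These matches are letters only and show no binding.

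Itch, the HECT ligase missing in itchy mice and known for the turnover of JunB, was measured by 1 probe. Its processed signal was 4.58 ± 3.31 in CD8+ cells and 2.92 ± 2.91 in CD4+ cells. The spot was not well above background on either array, with median pixel values of 44 in CD8+ cells and 42.5 in CD4+ cells over local backgrounds of 47 and 40.5. No difference is given for Itch, and its transcript was not detectable by this probe, which does not show that the gene was silent.

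Ndfip1 is a membrane adaptor whose PY motifs recruit and activate Nedd4-family ligases, and mice without it develop T cell-driven inflammation. Its probe had a processed signal of 6343 ± 634 in CD8+ cells and 9673 ± 967 in CD4+ cells. The signal was lower in CD8+ cells, the opposite direction from Nedd4, which it can activate. Ndfip1 was 1.35-fold higher in CD4+ cells (log2 difference -0.43 ± 0.20). In size this is larger than the SD of 0.23 between probes of a gene, which leaves out differences between hybridizations. Of the 11957 genes above background on both arrays, 78.0% lay closer to 0. The spots around it also leaned toward the CD4+ array, with a median difference of -0.18 (237 spots), and their part in the value was not tested. With normexp background correction Ndfip1 was 1.56-fold and with scaling to the median 1.22-fold higher in CD4+ cells.

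The remaining genes of the Nedd4 family were read for comparison. Of 8 listed, 7 were above background, and Hecw1 was not. Their median difference was 0.04, beside 0.00 over all genes. Only Nedd4l, the closest relative of Nedd4, passed 2-fold. Its probe had a processed signal of 86.7 in CD8+ cells and 46.9 in CD4+ cells, 2.09-fold higher in CD8+ cells, but 1.53-fold with normexp and 1.65-fold with the authors' series values. Wwp1 differed by 0.19, Smurf2 by 0.04, Smurf1 by -0.02 and Wwp2 by -0.40. Ndfip2, the other adaptor, differed by -0.27, and both adaptors thus had the lower level in CD8+ cells (Ndfip1 -0.43). Under scaling to the median, which moved the median of all genes by 0.14, the list's median was 0.18.

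Cbl, a RING ligase that marks activated tyrosine kinases and receptor chains and is known above all from thymocytes, had 2 dim probes. The brighter one had a processed signal of 80.8 ± 8.69 in CD8+ cells and 94.1 ± 9.93 in CD4+ cells. The other had 42.4 ± 5.33 in CD8+ cells and 44.6 ± 5.42 in CD4+ cells. Both signals were somewhat lower on the CD8+ array, and scaling by the 75th percentile left differences of -0.04 ± 0.22 and 0.10 ± 0.25. The probes thus had opposite signs, each within its error, and the sign of Cbl changed with the processing. The gap of 0.15 between them was within the spread of 0.23.

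Rnf128, known as GRAIL, is a membrane-bound RING ligase described in anergic mouse CD4+ T cells, where it limits proliferation and cytokine production. Its probe had a processed signal of 3.11 ± 3.09 in CD8+ cells and 34.0 ± 4.35 in CD4+ cells. It was not well above background on the CD8+ array, where the median pixel value was 45.5 over a local background of 57.5. On the CD4+ array the median pixel value was 83.5 over a local background of 45.5, a dim but called spot. Set against the lowest signal called above background on the CD8+ array (14.7), Rnf128 was 2.05-fold higher in CD4+ cells, a log2 bound of -1.03. That lowest called signal is not a strict detection limit, and with a higher limit the fold would be smaller. On the CD4+ array, for comparison, the lowest called signal was 12.9, yet Itga2b at 15.3 was not called. The measured levels, in log2 units from each array's 75th percentile, were -7.18 in CD8+ cells and -3.90 in CD4+ cells. Of 1911 spots with a CD4+ signal within 0.25 log2 units of this one, 271 (14.2%) were not well above background on the CD8+ array and 9 (0.471%) were as dim there as Rnf128. The bound fell below 2-fold with scaling to the median (1.86-fold), quantile normalization (1.81-fold), the authors' series values (1.47-fold) and normexp (1.45-fold).

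The promoter window of Rnf128, shown because this gene was called on 1 array alone, spans chrX:139610370-139610619 on the plus strand (RefSeq, GRCm38.p6).
Rnf128: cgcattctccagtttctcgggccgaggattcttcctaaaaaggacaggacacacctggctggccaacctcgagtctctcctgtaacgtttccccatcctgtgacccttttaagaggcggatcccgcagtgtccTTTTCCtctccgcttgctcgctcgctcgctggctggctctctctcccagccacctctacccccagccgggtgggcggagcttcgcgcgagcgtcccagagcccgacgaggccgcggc
Its capitals mark an NFAT core on the opposite strand, 117 to 112 bases before the start, a motif that 20.4% of all windows held. NFAT is the calcium-driven factor through which anergy genes are known to be induced.

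**Figure D2:**
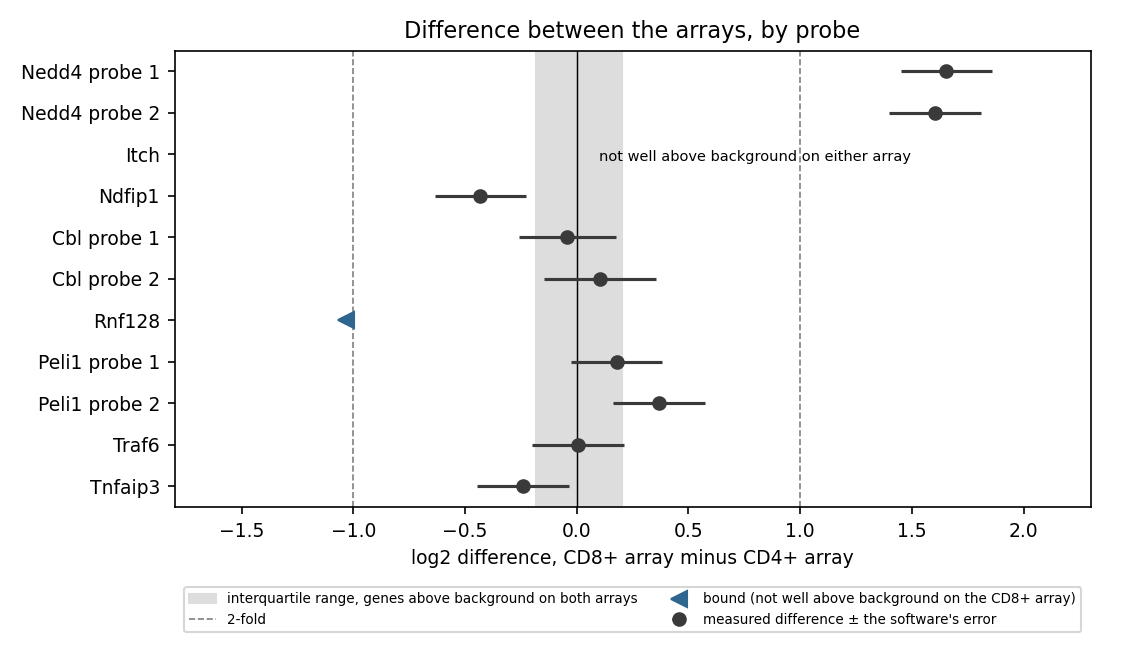
Log2 difference (CD8+ minus CD4+ array) of each member probe above background on both arrays, with bars for the software's propagated error and an arrowhead for the bound of Rnf128. The grey band is the interquartile range of 11957 genes (-0.18 to 0.20) and dashed lines mark 2-fold. Both Nedd4 probes lie beyond 2-fold on the CD8+ side, and those of Cbl and Traf6 and the brighter of Peli1 lie inside the band.

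Peli1 is a ligase of the Pellino family that is abundant in lymphocytes and is known to restrain mouse T cell activation by targeting the NF-kB subunit c-Rel. The brighter of its 2 probes had a processed signal of 24845 ± 2484 in CD8+ cells and 24799 ± 2480 in CD4+ cells. The other had 4134 ± 413 in CD8+ cells and 3619 ± 362 in CD4+ cells. The signals were near equal on both arrays and neither probe was saturated. The differences were 0.18 ± 0.20 and 0.37 ± 0.20, positive for both probes. Peli1 remained 1.06-fold to 1.25-fold higher in CD8+ cells in all 11 ways of processing, with log2 differences of 0.08 to 0.32 on either side of the 0.23 spread between probes. Several of these ways kept the same probe and scaling, and so the same value.

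Traf6, a RING ligase that builds the chains that activate the NF-kB kinases and whose loss in T cells leads to inflammation in mice, was the least different member. Its probe had a processed signal of 353 ± 35.5 in CD8+ cells and 398 ± 39.9 in CD4+ cells. The difference was 0.00 ± 0.20, with 1.41% of the genes above background on both arrays closer to 0, and its sign changed with the processing.

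Tnfaip3, which encodes A20, edits the ubiquitin chains of NF-kB signalling and is itself a known NF-kB target. Its probe had a processed signal of 2049 ± 205 in CD8+ cells and 2736 ± 274 in CD4+ cells. The signal was lower in CD8+ cells, by a log2 difference of -0.24 ± 0.20 (1.18-fold higher in CD4+ cells). This is about the spread of 0.23 between probes of a gene, and 58.3% of the genes above background on both arrays lay closer to 0. The value stayed between -0.29 and -0.10 in all 11 ways of processing, several of which could not change it.

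The window before 1 of the Tnfaip3 starts is shown because the gene is a known NF-kB target and this window held matches to the NF-kB consensus. It spans chr10:19015411-19015660 on the minus strand (RefSeq, GRCm38.p6).
Tnfaip3: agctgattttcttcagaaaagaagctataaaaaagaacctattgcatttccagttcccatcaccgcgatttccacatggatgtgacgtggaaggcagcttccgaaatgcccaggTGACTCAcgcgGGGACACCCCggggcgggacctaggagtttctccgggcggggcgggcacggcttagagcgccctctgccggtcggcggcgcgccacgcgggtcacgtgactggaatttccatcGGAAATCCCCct
The capitals are an AP-1 match 136 to 130 bases before the start, an NF-kB consensus match 125 to 116 bases before it, and another NF-kB match 12 to 3 bases before it on the opposite strand. Of all windows, 7.25% held the NF-kB consensus. A second annotated start of Tnfaip3 had none of the motifs in its window. Among the other measured members, the window of Cbl held an EGR match, that of Traf6 a RUNX match (held by 4614 of 32851 windows) and that of Peli1 none.

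In the wider ubiquitin pathway few genes passed 2-fold, which was also so of all genes: 94.2% of the 11957 genes above background on both arrays lay within 2-fold. RING relatives of the members had a median difference of -0.05 over 13 genes above background of 15 with a probe. Of these, 1 passed 2-fold, Peli2, a relative of Peli1 that was 2.94-fold higher in CD4+ cells (1.57-fold with normexp), with a processed signal of 31.8 in CD8+ cells and 105.6 in CD4+ cells. That was the only 1 of its 3 probes above background on both arrays. Another was called on the CD4+ array alone (7.99 in CD8+ cells and 18.0 in CD4+ cells). The last was called on neither (3.26 in CD8+ cells and 2.87 in CD4+ cells). Partners of A20 and deubiquitinases had a median of -0.11 over 11 genes and none beyond 2-fold. The largest difference was that of Cyld, a deubiquitinase that restrains NF-kB, 1.65-fold higher in CD4+ cells (log2 difference -0.72, and -0.14 by its dimmer probe). Otub2 followed at 1.39-fold (1.02-fold with normexp), from dim spots of 24.4 in CD8+ cells and 38.2 in CD4+ cells. The other Otub2 probe was not well above background on either array. Under scaling to the median, the medians of the RING relatives and of the A20 partners turned positive (0.09 and 0.04).

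Other ubiquitin ligases of T cells had a median of 0.19 over 13 genes, beside 0.00 over all genes, with 10 higher in CD8+ cells and none beyond 2-fold. The median was 0.09 both with normexp and with the authors' series values. Rnf125, a RING ligase also known as TRAC-1, was 1.58-fold higher in CD8+ cells and Trim27 1.39-fold. Ubiquitin E1 and E2 enzymes had a median of 0.23 over 10 genes, and none passed 2-fold. Uba1, the main ubiquitin-activating enzyme, was 1.38-fold higher in CD8+ cells (1.11-fold by its dimmer probe). Ube2j1 was 1.23-fold higher in CD4+ cells (1.13-fold by its dimmer probe). Substrates and signalling partners of the ligases had a median of 0.00 over 28 genes (0.14 with median scaling), all within 2-fold. The largest differences there were those of Pik3r1, a regulatory subunit of PI3 kinase that Cbl-b targets, at -0.37, and Vav1 at 0.35. Vav1 had no settled direction, with -0.15 by its dimmer probe and -0.37 under normexp and under the authors' series values. The only probe of Rel, the Peli1 target, was not well above background on either array.

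**Figure D3:**
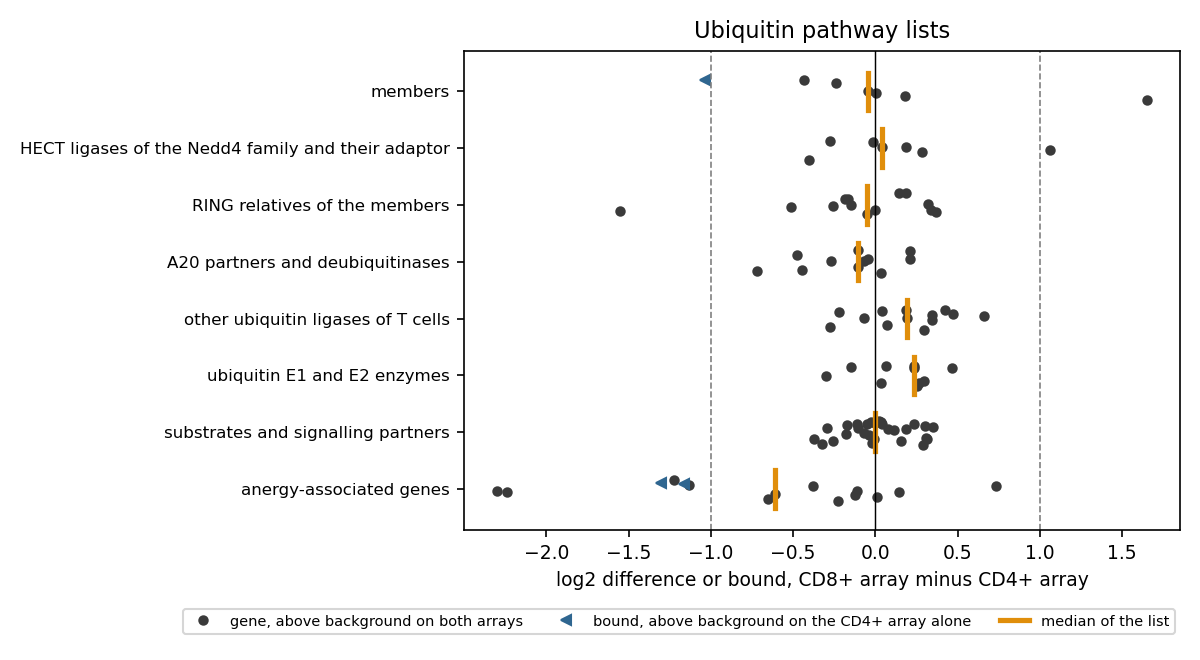
Log2 difference (CD8+ minus CD4+ array) of each gene of the members and of 7 ubiquitin pathway lists, with an orange bar at each list's median and arrowheads for bounds. Dashed lines mark 2-fold. The anergy-associated genes have the lowest median (-0.61), and the other medians lie between -0.11 and 0.23.

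Genes associated with anergy, the state from which Rnf128 is known, lay toward the CD4+ array. Of 15 above background, 6 were at least 2-fold higher in CD4+ cells, against 4.66% of all genes, and none in CD8+ cells (2.21%). The list was chosen with earlier results of these data known, so its excess over all genes is a description and no independent evidence. Of these 6, Izumo1r and Nrp1 are also in the regulatory T cell marker list, which lay the same way (median -2.40), and its part in the anergy list was not tested. Nr4a2 went the other way, at 0.73. The list's median was -0.61, beside 0.00 over all genes, and -0.24 with normexp. Higher in CD4+ cells were Pdcd1, which encodes the inhibitory receptor PD-1, by 4.93-fold and Izumo1r, a folate receptor relative, by 4.73-fold (2.61-fold with normexp). Nr4a1 was 2.34-fold and Lag3, an inhibitory receptor that binds MHC class II, 2.19-fold higher (1.80-fold with normexp). Nrp1 and Egr3 were called on the CD4+ array alone, as Rnf128 was, with bounds of 2.47-fold and 2.24-fold (1.41-fold and 1.18-fold with normexp). Over all named genes, 920 were called on the CD4+ array alone and 181 on the CD8+ array alone, so a shared call shows no link. Egr3 is a factor known to raise Cblb and other anergy genes. Its probe had a processed signal of 13.1 in CD8+ cells and 37.2 in CD4+ cells. With normexp 3 of the 15 genes passed 2-fold.

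Markers of regulatory T cells and of other cells were read by the array toward which they lay, that of Rnf128 (CD4+) or of Nedd4 (CD8+). With 1 array per cell type a gene can only lie to either side, so a shared side shows no link with these members. Over all 13058 genes the median difference was 0.00. Toward the CD4+ array with Rnf128 lay 9 of 10 regulatory T cell markers (median -2.40), whose summed level was 42.1 in CD8+ cells and 97.7 in CD4+ cells, in units of each array's 75th percentile. Foxp3 and Il2ra, which define regulatory T cells, and Nrp1 were not well above background on the CD8+ array. Also there were 8 of 8 plasma cell markers (median -0.85, summed level 5.19 in CD8+ cells and 8.04 in CD4+ cells), of which Tnfrsf17 was not well above background on the CD8+ array. Of 7 dendritic cell markers 5 did likewise (median -0.99, summed level 45.5 in CD8+ cells and 47.9 in CD4+ cells). Against these, Ccr9 was 6.28-fold higher in CD8+ cells (processed signal 3880 in CD8+ cells and 698 in CD4+ cells) and Xcr1 differed by 0.35. Toward the CD4+ array also lay 6 of 8 monocyte and macrophage markers (-0.36, 121 in CD8+ cells and 64.8 in CD4+ cells, a sum led by Ly6c2, 3.39-fold higher in CD8+ cells). Among the 6, Ccr2 was 6.41-fold and Lyz2 4.49-fold higher in CD4+ cells (3.72-fold and 3.66-fold with normexp). Csf1r differed by 0.05.

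Toward the CD8+ array with Nedd4 lay 10 of 11 B cell markers (median 0.54, summed level 42.4 in CD8+ cells and 32.1 in CD4+ cells), none beyond 2-fold. So did 5 of 6 erythroid and platelet markers (median 0.60). Hba-a1 went the other way (-0.30), and the summed level of that list was lower in CD8+ cells (5.06) than in CD4+ cells (5.73). NK cell markers were split, 3 to 3 (median 0.16, summed level 83.6 in CD8+ cells and 7.67 in CD4+ cells), with Klre1 on neither array. Higher in CD8+ cells were Nkg7 (14.2-fold), which led the sum, Eomes (log2 difference 3.33) and Klrk1 (0.54). Higher in CD4+ cells were Klrb1c (-2.34), Ncr1 (-2.14) and Gzma (-0.22). Neutrophil markers had a median of -0.03 (2.95 in CD8+ cells and 2.52 in CD4+ cells, with Elane on neither array). The T cell markers that define both populations were all well above background, with a median of 0.08 over 9 genes (543 in CD8+ cells and 552 in CD4+ cells). Among them Cd28 was 2.09-fold higher in CD4+ cells (1.89-fold with median scaling) and Cd5 1.79-fold. With bright probes alone the dendritic median was 0.06, the neutrophil median was 0.27, and the erythroid and platelet median was 0.03. With normexp the medians were -1.58 for regulatory T cells, -0.57 for plasma cells, -0.56 for dendritic cells, 0.32 for B cells and 0.08 for neutrophils. The part of these cells in the Nedd4 and Rnf128 differences was not tested.

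**Figure D4:**
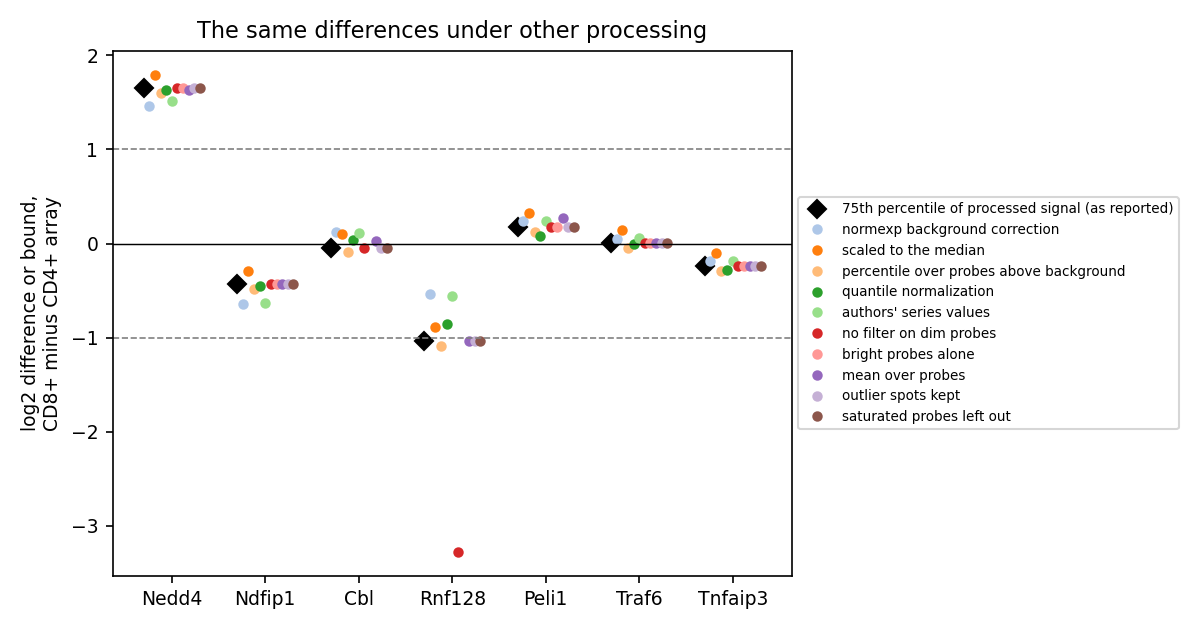
Log2 difference or bound (CD8+ minus CD4+ array) of the 7 members above background under the reported processing (black diamonds) and 10 alternatives (coloured points). Nedd4 stays above 2-fold in each, the bound of Rnf128 crosses 2-fold, and Cbl and Traf6 change sign.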

How the data were processed

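Per the file headers, the deposited scanner files were made with Feature Extraction 10.1.1.1 on an array design annotated on mm9, while the submitters' processing notes name version 9.1. The deposited intensity used here (gProcessedSignal) is background-subtracted and detrended, and was not scaled between arrays. The authors' deposited value table equals the median pixel intensity at 45018 of 45018 spots on each array. The software's deposited flags gave the calls above background, saturation and outliers.

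Log2 processed signals were scaled to the 75th percentile of the array's non-control spots (449.9 in CD8+ cells and 508 in CD4+ cells). Outlier spots (92 on the CD8+ and 99 on the CD4+ array) were left out, saturated ones kept, and spots of a probe averaged. Probes were named by unversioned accession in a RefSeq table of GRCm38.p6, used for names alone, and 24840 of 41170 had 1 symbol. A gene took its brightest probe above background, preferably on both arrays. A gene called on 1 array got a bound, computed against its level on the dim array or the lowest level called above background there, whichever was higher. The lowest called level is not a strict detection limit. With 1 array per group there is no p-value. Members and lists were chosen with earlier results of these data known. Named were all members, pathway genes at least 2-fold apart or otherwise the 2 largest differences of a list, and markers where a result turned on them. Alternatives were normexp (offset 50, on the median signal, since the files used have no mean signal column), 3 other scalings, the series values, and other filters, probe rules and thresholds. The computation was tested on simulated data. R 4.3.3, limma 3.58.1, Python 3.11.15, numpy 2.4.6 and pandas 2.3.3 were used.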

Additional observations from a re-analysis of the deposited data

How the results depend on the processing

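Nedd4 kept its direction and stayed beyond 2-fold under the 10 other ways of processing. Not all of these could change it. Without the dim filter, with bright probes alone, with outlier spots kept or with saturated probes left out, the same probe and scaling gave the same 1.65. The same holds for Peli1 and Tnfaip3. The Rnf128 value was -0.54 under normexp, -0.56 for the series values, and -3.28 without a filter on dim probes, where it is a measured difference in place of a bound. The count of members at least 2-fold higher in CD4+ cells was therefore 0 with normexp, median scaling, quantile normalization, the series values and bright probes alone, the last of which left Rnf128 and Cbl out. At a 4-fold threshold 0 members passed in CD8+ cells and 0 in CD4+ cells. Over all genes, the counts at least 2-fold higher in CD8+ and in CD4+ cells were 288 and 609. They were 124 and 238 under normexp, 148 and 294 for the series values, 616 and 1277 without the filter, 124 and 199 with bright probes alone, 789 and 1281 at 1.5-fold, and 63 and 144 at 4-fold. Of all 2-fold calls, 32.1% were higher in CD8+ cells, against 44.4% with median scaling. Of 126 recomputed values of the members and of all genes, 104 moved by less than the spread between probes or 1.5 times the count. Some of the 104 could not move under their setting, so this count is no measure of robustness. No paired analysis was possible because each group had 1 array, and a block for the slide was not run for the same reason. Signal over background limits Rnf128, Cbl and Itch, whose spots were dim.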
